A study of Homo sapiens with 26 samples.

Results

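The 32 genes described here encode the protein subunits of the human small ribosomal subunit (40S). Members are all gene symbols made of RPS, a number and an optional A or X, together with RPSA and FAU, and 32 of the 19478 transcripts in each deposited table met this rule. RPS27L and the genes RPS4Y1 and RPS4Y2 carry similar names and were not counted as members. Footprint counts of these genes were followed through 26 ribosome profiling libraries, in which RNase I leaves the stretches of mRNA covered by ribosomes. By its title the series addresses biases that nuclease-based removal of ribosomal RNA leaves in such libraries.

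The cells were HEK293T and HEK293FT, both derived from human embryonic kidney, and K562, derived from a chronic myeloid leukaemia. The HEK293T table holds 2 libraries each of undepleted RNA and of RNA depleted with Ribo-Zero Gold, RiboCop or NEBNext, all from fragments labelled 15 to 35 nt. A first K562 table, called here the size-selection table, holds 1 NEBNext and 1 undepleted library of 20 to 34 nt and 1 of each of 20 to 60 nt. A depletion label naming NEBNExt is also attached to the undepleted libraries there, and they are grouped by their titles. A second K562 table of 20 to 34 nt, called the kit table, holds 2 libraries each of undepleted RNA, FastSelect, riboPools and riboPools eluted cold. It also holds 1 Ribo-Zero Plus library and 1 each of Ribo-Zero Plus with oligos, with formaldehyde and with both, whose purpose the labels do not explain. The protocol common to all samples names 15 to 34 nt, and the sizes given here are those of each sample's own label. HEK293FT is represented by 1 undepleted library and 1 treated with custom oligos (15 to 35 nt). NEBNext and Ribo-Zero Plus digest RNA paired to DNA probes with a nuclease, the Ribo-Zero Gold, RiboCop and riboPools kits capture ribosomal RNA with beads, and FastSelect keeps it from being reverse transcribed. Cells of all groups were lysed with cycloheximide. The labels do not say that libraries of 1 group came from separate cultures, so p-values measure the spread between these libraries, which may be technical.

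The small subunit binds mRNA and decodes it, while the large subunit joins amino acids. Each small subunit holds 1 copy of nearly every one of its proteins, and growing cells make these proteins in step with each other. In vertebrates the mRNAs of ribosomal proteins begin with a run of pyrimidines, the terminal oligopyrimidine motif, through which growth signals adjust their translation together. Mutations in several small-subunit genes, RPS19 and RPS24 among them, cause Diamond-Blackfan anaemia, and loss of RPS14 underlies the anaemia of the 5q deletion syndrome.

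All 32 genes were detected in all 26 libraries, with 24 counts or more per gene. Library totals ran from 46858 counts (undepleted K562, 20 to 60 nt) to 5795774 counts (riboPools eluted cold), and 95% intervals given for shares are exact binomial intervals that cover counting error only. The libraries showed the markers of their labelled lines: the erythroid genes HBG1, HBG2 and HBE1 were at 0 in every HEK293T and HEK293FT library. Summed over 8 erythroid markers, K562 libraries held 3639 to 12882 CPM (counts scaled to a library total of 1000000), and HEK293T libraries held at most 6.52 CPM. Over 5 HEK293 markers, HEK libraries held 262 to 652 CPM and K562 libraries at most 0.881 CPM. The 2 lowest K562 values, 5979 and 3639 CPM, belonged to both formaldehyde libraries, followed by 9187 CPM with oligos, and the part this plays in their results was not tested. The 3 Ribo-Zero Plus libraries with additions held 116742 to 184722 counts, against 1840190 for Ribo-Zero Plus alone.

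Within undepleted HEK293T cells the 32 genes spanned a 4.73-fold range of footprint level per length, from RPS15 at the top to RPS12 at the bottom. Levels were compared between genes as CPM per kilobase of coding sequence. RPS15, a protein of the subunit head whose tail reaches toward the decoding site, stood at 5225 CPM per kb as the mean of 2 libraries. It was followed by RPS4X (4655 CPM per kb), a protein of the subunit body encoded on the X chromosome, and RPS18 (3766 CPM per kb), a head protein that contacts the large subunit. In CPM without the length correction, RPS15 had 2375 and 2202 in the 2 libraries and RPS4X had 3783 and 3590. The lowest were RPSA (1411 CPM per kb), which sits on the solvent side of the subunit, RPS20 (1242 CPM per kb), a head protein that is ubiquitinated on stalled ribosomes, and RPS12 (1104 CPM per kb), a head protein with no bacterial counterpart. RPS12 had 425 and 456 CPM and RPS20 had 517 and 378 CPM. Most of the order was not resolved: in only 5 of the neighbouring pairs was the higher gene above the next in both libraries. At the bottom, RPS20 (1050 CPM per kb) lay below RPS12 (1143 CPM per kb) in undepleted replicate 2. RPS15, RPS4X, RPS9 and RPS21 were among the genes that cleared their next lower neighbour. The median gene had 2615 CPM per kb, and the SD over the 32 genes was 0.50 on the log2 scale.

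The order was nearly the same in the 2 undepleted K562 tables and differed between K562 and HEK293T. Over the 32 genes, log2 levels per kb had a Pearson correlation of 0.97 between both K562 tables, 0.88 between HEK293T and HEK293FT, and 0.54 between HEK293T and the K562 kit table. These are descriptions over genes, which share coding length and sequence in every table. In K562, RPS18 led with 8555 CPM per kb, followed by RPS24 (5979 CPM per kb) and RPS23 (4877 CPM per kb), which lies at the decoding centre. RPS15 ranked 19 of 32 there, with 2930 CPM per kb, and RPS4X ranked 22. RPS26, which lines the mRNA exit channel, was lowest at 1583 CPM per kb. The highest level was 5.40 times the lowest in this table, and 15 neighbouring pairs were separated in both libraries.

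**Figure D1:**
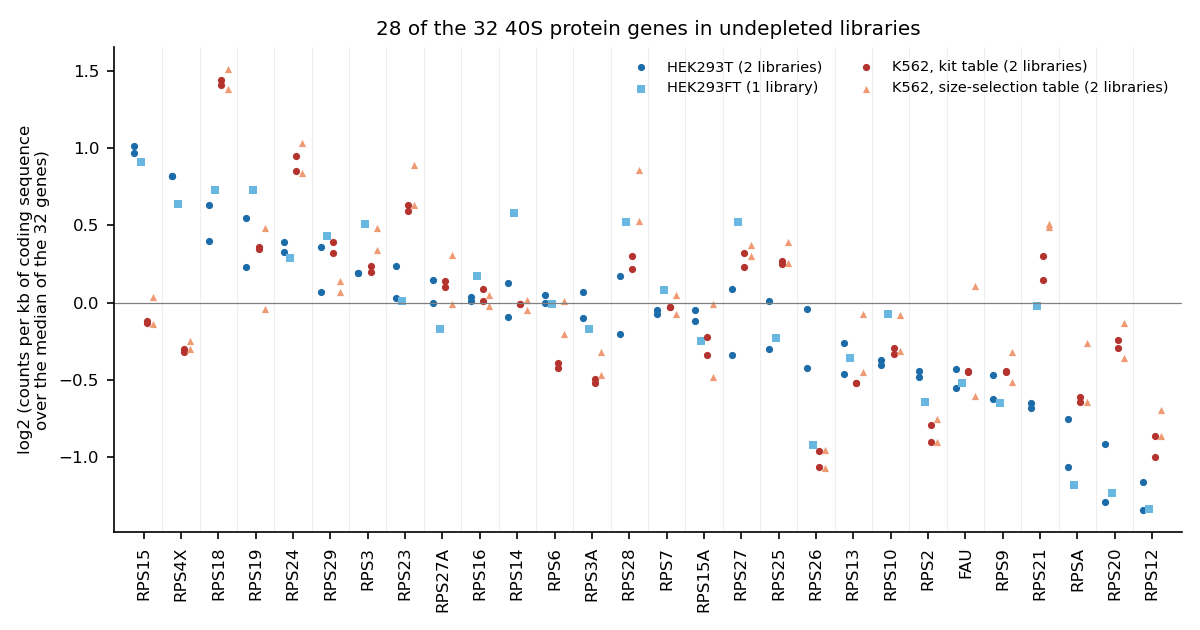
Counts per kilobase of coding sequence of each gene over the median of the 32 genes in the same undepleted library, for 28 of them (log2, y axis), with genes ordered by their mean level in HEK293T (x axis) and 1 point per library. RPS15 and RPS4X lie above the median in the HEK lines and below it in the K562 kit table, while RPS18 is the highest gene in both K562 tables.

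Relative to all genes, most small-subunit genes had more footprints in K562 than in HEK293T. In edgeR's quasi-likelihood test with Benjamini-Hochberg adjustment over all 5551 genes tested, 26 of the 32 differed between the undepleted K562 kit libraries and the undepleted HEK293T libraries at an adjusted p under 0.05, 23 higher and 3 lower, where 44.3% of all genes were called (22.0% higher, 22.3% lower). Among the 287 tested genes at least as abundant as the lowest member, 74.9% were called, so the number of calls among the 32 is close to that of other abundant genes. The median log2 fold change of the 32 genes was 0.45, against -0.01 over all genes. Scaling by total counts lowered both medians, to 0.30 and -0.16. Cell line, experiment and fragment size differ together between these tables and cannot be told apart.

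RPS21, RPS18 and RPS20 had the largest rises. RPS18 had 1633 and 1825 CPM in undepleted HEK293T and 3860 and 3994 CPM in undepleted K562, a log2 fold change of 1.29 with an SE of 0.07. RPS21, a small protein of the body, had 425 and 411 CPM in HEK293T against 986 and 899 in K562 (log2 fold change 1.29, SE 0.13). Neither gene's libraries overlapped between the lines. RPS20 went from 517 and 378 CPM to 934 and 977 CPM (log2 fold change 1.23, SE 0.13). The edgeR adjusted p was at most 1.44e-20 for each of these 3 genes. In the other direction, RPS4X fell by 0.74 (SE 0.06) and RPS15 by 0.72 (SE 0.08) on the log2 scale. RPS4X had 2042 and 2033 CPM in K562, and RPS15 had 1272 and 1295 CPM, all below every HEK293T library. RPS26 fell by 0.41 (SE 0.12, edgeR adjusted p 0.00156), from 700 and 867 to 529 and 573 CPM. That call was lost without undepleted HEK293T replicate 2 (log2 fold change -0.10) and without undepleted K562 replicate 1 (-0.31).

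Genes of the head and of the body and platform were among those called higher. Of 14 head genes, 12 were higher and 1 lower, and of 18 body and platform genes, 11 were higher and 2 lower. RPS24 (0.94), RPS23 (0.86) and RPS25 (0.81), needed by some viral internal ribosome entry sites, were among the next in log2 fold change. Among the other genes called higher, between 0.76 and 0.34, were RPS27, RPS12, RPSA, RPS28, RPS29, RPS9 and RPS3, the latter 2 at the mRNA entry, RPS10, ubiquitinated on stalled ribosomes, FAU, RPS27A, RPS7, RPS16, whose tail reaches the P-site tRNA, RPS14 and RPS19. The call of RPS14 (0.38) was lost without undepleted HEK293T replicate 2 (0.35) and that of RPS19 with DESeq2 (0.30, adjusted p 0.449), and 23 of the 26 calls held under all 7 alternatives. RPS2, also at the mRNA entry, RPS3A, of the platform, RPS6, the substrate of S6 kinase, RPS13 and RPS15A were among the genes that did not pass. Against the K562 size-selection table, the kit table had no member called by edgeR or DESeq2, 4 at an unadjusted p under 0.05, and a range of log2 differences from -0.27 to 0.29, where 0.288% of all genes were called.

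HEK293FT also carried more small-subunit footprints than HEK293T, and there no member was called lower. With 1 library of HEK293FT, whose spread is taken from the other undepleted libraries, 27 of 32 genes were called higher by edgeR and 0 lower, where 7.57% of all genes were called in either direction, 4.85% higher, and 48.7% of the 316 genes at least as abundant. DESeq2 called 20 genes higher and scaling by total counts 22, with 0 lower in both, and 18 of the 27 calls held under all 5 alternatives. The median log2 fold change was 0.49 over the members, 0.00 over all genes, and 0.36 with scaling by total counts, which moved the median of all genes to -0.11. RPS21 (1.17), RPS27 (1.14), a zinc-binding protein of the platform region, and RPS14 (1.10), which lies at the platform beside the exit channel, had the largest log2 fold changes, and RPS26 (-0.19, SE 0.12) had the 1 value below 0. RPS14 had 2356 CPM in HEK293FT against 1341 and 1095 in HEK293T. RPS15 and RPS4X, lower in K562, were higher in HEK293FT, with log2 fold changes of 0.45 and 0.34. Without undepleted HEK293T replicate 1 the count was 23, and without replicate 2 it was 21. The calls of FAU, RPS9 and RPS15A (0.37) were lost in both cases, the last at 0.47 and 0.35, that of RPS23 without replicate 1, and those of RPS2, RPS25 and RPS3A without replicate 2. This comparison shares its HEK293T libraries with the preceding one. Cell line and experiment differ together in it and cannot be told apart.

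Since ribosomal protein mRNAs are known for the pyrimidine motif, RefSeq transcription starts (build GRCh38.p14) were searched for it on the strand of the gene. A start was counted when its base was a C followed by 4 bases that were each C or T. RefSeq promoter windows were at hand for 25 of the genes with 28 starts, and 19 of the 28 starts (67.9%) held the motif, against 56.0% of 50 large-subunit starts and 4.07% of all 35116 starts. No window was at hand for RPS20, among the largest rises in K562, and RPS24 is printed beside RPS18 and RPS21. The windows of genes toward both ends of the comparison between K562 and HEK293T follow. They run from 15 bases before the start to 15 bases from it, with the tract in capitals.
RPS18, chr6:33272060-33272089, plus strand: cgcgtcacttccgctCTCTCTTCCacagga
RPS21, chr20:62387088-62387117, plus strand: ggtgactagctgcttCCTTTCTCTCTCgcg
RPS24, chr10:78033848-78033877, plus strand: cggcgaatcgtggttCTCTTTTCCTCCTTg
RPS4X, chrX:72277234-72277263, minus strand: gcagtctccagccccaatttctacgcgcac
RPS15, chr19:1438381-1438410, plus strand: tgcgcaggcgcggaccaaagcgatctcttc
RPS26, chr12:56041903-56041932, plus strand: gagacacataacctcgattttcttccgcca
The 3 printed genes with higher levels in K562 begin with a tract of 9, 12 and 14 bases. No match was found at the annotated start of RPS4X, RPS15 or RPS26, the 3 genes that were called lower in K562, nor of RPS7, RPS28 or RPS29. The RPS29 start lies 12334 bases upstream of the transcript that was counted, and the other starts lie within 567 bases of theirs. The 19 genes with a tract had a median log2 fold change of 0.47 between K562 and HEK293T, with 16 called higher and 0 lower, and the 6 without had a median of 0.01, with 3 higher and 3 lower. Without RPS29 the median of the remaining 5 was -0.41, with 2 higher and 3 lower. This split was looked at after the values were known and was not tested. In HEK293FT the medians were 0.50 with a tract and 0.56 without (0.45 without RPS29). The search read only the 5 bases at each annotated start and not the rest of the window. In the printed windows of RPS15 and RPS26, a C followed by 4 pyrimidines occurs further downstream. The split thus depends on the exact annotated base, and no match says only that these letters are not at that start.

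NEBNext, the RNase H kit, shifted the small-subunit genes against each other in HEK293T. Footprints of 10 genes rose and those of 1 fell at an edgeR adjusted p under 0.05, so that 11 of 32 were called (34.4%), where 3.24% of the 4410 genes tested were called (1.50% higher, 1.75% lower). Among the 412 tested genes at least as abundant as the lowest member, 17.7% were called. The genes moved apart and not as a block: the median log2 fold change was 0.05 over the members and 0.00 over all genes, while single members ran from -0.85 to 1.0. The 32 genes together took 4.133% (95% interval 4.021 to 4.247%) and 4.179% (4.079 to 4.280%) of coding counts in the undepleted libraries. Their share was 4.637% (4.525 to 4.751%) and 4.748% (4.656 to 4.842%) with NEBNext.

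RPS13, a body protein that bridges to the large subunit, had 892 and 977 CPM without depletion and 1628 and 2024 CPM with NEBNext. The log2 fold change was 1.0 with SE 0.12 and an edgeR adjusted p of 6.19e-15. RPS29, a small zinc-binding head protein, went from 483 and 560 to 1043 and 1015 CPM (log2 fold change 0.98, SE 0.15, adjusted p 1.99e-08 in edgeR). RPS15A, a core protein of the body, went from 1025 and 925 to 1688 and 1681 CPM (log2 fold change 0.81, SE 0.12). For each of these genes both NEBNext libraries lay above both undepleted libraries, and the Ribo-Zero Gold and RiboCop libraries stayed near the undepleted ones, for RPS13 between 1018 and 1148 CPM. RPS24, a body protein with no bacterial counterpart, was the gene that fell. It had 1333 and 1323 CPM without depletion, 720 and 731 CPM with NEBNext, and 1219 to 1415 CPM with the 2 bead kits. Its log2 fold change was -0.85 (SE 0.13, edgeR adjusted p 1.38e-08).

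Among the other genes that rose were RPS27 (0.67), RPS27A (0.65), which is made as a fusion to ubiquitin, RPSA (0.53), RPS28 (0.51), RPS18 (0.49) and RPS3A (0.43). The 21 genes that did not pass lay between -0.26 (FAU, made as a fusion to a ubiquitin-like protein) and 0.37 (RPS21). Those 2 values had SEs of 0.15 and 0.18. RPS13, RPS15A, RPS24, RPS27A and RPS29 were called under all 8 alternatives. The call of RPS27 was lost without undepleted replicate 1 (log2 fold change 0.51), as was that of RPSA (0.42), and that of RPS18 was lost without NEBNext replicate 2 (0.36). The call of RPS3A was lost without undepleted replicate 2 (0.31). That of RPS28 was lost with DESeq2 (0.51, DESeq2 adjusted p 0.210) and without the filter on low counts (0.52, edgeR adjusted p 0.0758). The RPS28 call was also lost without undepleted replicate 1 (0.38), undepleted replicate 2 (0.70) or NEBNext replicate 2 (0.33).

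In K562 the same kit moved 7 of 32 genes in edgeR (21.9%), 4 up and 3 down, where 2.72% of the 3715 genes tested were called (1.75% higher, 0.969% lower) and 13.1% of the 475 at least as abundant as the lowest member. The share of the 32 genes in coding counts was 5.411% (95% interval 5.345 to 5.478%) with NEBNext and 5.067% (4.969 to 5.166%) without at 20 to 34 nt. At 20 to 60 nt it was 5.193% (5.096 to 5.291%) and 4.985% (4.790 to 5.186%), where the intervals overlap. The median log2 fold change was 0.17 over the members and -0.00 over all genes.

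RPS29 rose most: the shorter fragments gave 594 CPM without and 2099 CPM with NEBNext, the longer ones 512 and 1197 CPM. Its log2 fold change was 1.72 (SE 0.18, edgeR adjusted p 2.21e-18), and 1.87 and 1.27 within each size. RPS21 went from 1109 to 1763 and from 1024 to 1397 CPM, and RPS27 from 1036 to 1666 and from 896 to 1177 CPM. Both had a log2 fold change of 0.65 with SE 0.16. In each of these 3 genes both NEBNext libraries lay above both undepleted ones. RPS26 (520 and 512 against 304 and 386 CPM) had a log2 fold change of -0.61 that did not pass (edgeR adjusted p 0.0884).

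The falls of RPS15 and RPS24 in K562 rested on the shorter fragments. With NEBNext RPS24 had 1224 CPM in place of 2213 among the shorter fragments and 2068 in place of 2283 among the longer ones, and RPS15 had 800 in place of 1414 and 1052 in place of 1131 CPM. Their log2 fold changes were -0.80 and -0.76 within the shorter range and -0.10 and -0.06 within the longer one, and the size effect itself was not tested in this table of 4 libraries. In the fit with size as a term they were -0.51 (SE 0.14, edgeR adjusted p 0.0227) and -0.52 (SE 0.16, edgeR adjusted p 0.0497). RPS29 was called under all 3 alternatives, and DESeq2 called 2 of the 32 genes, with 1 residual degree of freedom in the table. With DESeq2 the calls of RPS21, RPS27, RPS24 and RPS15 were lost (log2 fold changes 0.63, 0.62, -0.47 and -0.45). Those of RPS24 and RPS15 were also lost without the filter on low counts, and that of RPS15 with scaling by total counts.

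Across both lines, 24 of the 32 genes had the same sign of NEBNext log2 fold change, and the Pearson correlation was 0.58 (Spearman 0.43, n = 32 genes). The 2 experiments share no library, but the points share their coding sequences. Without RPS29 alone the Pearson correlation was 0.49 (Spearman 0.39, n = 31), and without both RPS13 and RPS29 it was 0.57 (n = 30). RPS29, RPS27 and RPS24 were called by edgeR in both lines, each in the same direction. Matching counts of shared signs and shared calls over all genes are not given here. The agreement can therefore not be read as particular to these genes. In K562 DESeq2 did not call RPS27 (DESeq2 adjusted p 0.413) or RPS24 (DESeq2 adjusted p 0.601). RPS13 differed most between the lines. It had 1051 and 1238 CPM without depletion and 1074 and 981 CPM with NEBNext in K562, a log2 fold change of -0.04 (SE 0.16). Cell line, experiment and fragment size differ together here and cannot be told apart. The difference of the NEBNext effect between the 2 experiments was tested in 1 fit with an interaction term. For RPS13 it was -1.0 (SE 0.20, edgeR adjusted p 0.00503), and RPS13 was the 1 member called, where 0.296% of 4736 genes were called (0.127% lower) and 3.86% of the 285 at least as abundant. Without undepleted HEK293T replicate 1 the difference was -0.93 (edgeR adjusted p 0.255) and without NEBNext replicate 2 it was -0.82 (edgeR adjusted p 0.117), so the call rests on those libraries. With DESeq2 it was -1.04 (adjusted p 0.483), and over all alternatives the adjusted p ran from 0.00140 to 0.483.

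**Figure D2:**
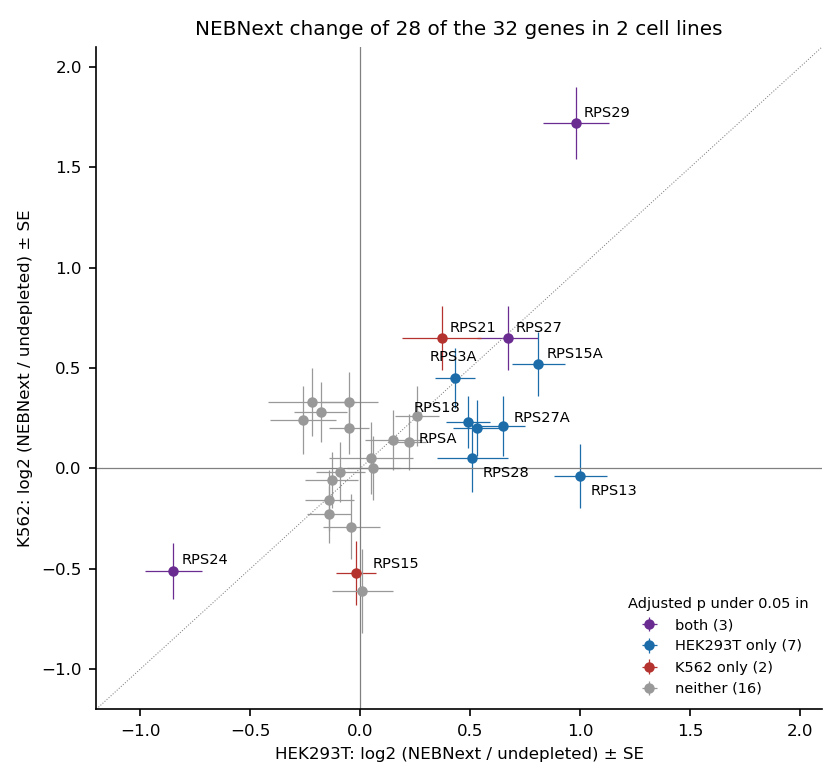
Fitted log2 ratio of NEBNext over undepleted libraries in HEK293T (x axis) and K562 (y axis) for 28 of the 32 genes, with bars of 1 SE and colours for the lines in which a gene passed an adjusted p of 0.05. In edgeR RPS29, RPS27 and RPS24 passed in both lines, and RPS13 lies at 1.0 in HEK293T and -0.04 in K562.

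RPS29 and RPS24, called by edgeR in opposite directions with NEBNext in both lines, lay at the ends of the members' base composition. The K562 call of RPS24 was lost with DESeq2. RPS29 had the lowest share of purines (A and G) in its coding sequence, 48.5%, and RPS24 the highest, 60.1%, with a median of 54.8% over the 32 genes. Both are printed from the GENCODE 29 coding sequences on GRCh38, with purine runs of 6 bases or more in capitals. The RPS29 transcript lies at chr14:49583572-49586376 on the minus strand with 3 coding exons, and its coding sequence of 171 bases is shown whole. The RPS24 transcript lies at chr10:78033863-78040716 on the plus strand with 4 coding exons, and bases 1 to 300 of its 393 coding bases are shown.
RPS29: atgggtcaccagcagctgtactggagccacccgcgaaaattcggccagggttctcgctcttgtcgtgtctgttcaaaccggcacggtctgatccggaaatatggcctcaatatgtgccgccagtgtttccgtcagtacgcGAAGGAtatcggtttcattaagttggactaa
RPS24: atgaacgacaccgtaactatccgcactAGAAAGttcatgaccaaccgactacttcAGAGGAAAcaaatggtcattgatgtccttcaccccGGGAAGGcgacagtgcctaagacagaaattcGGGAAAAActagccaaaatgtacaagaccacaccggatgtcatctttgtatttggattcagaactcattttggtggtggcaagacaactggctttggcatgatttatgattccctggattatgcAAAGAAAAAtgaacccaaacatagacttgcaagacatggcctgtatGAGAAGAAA
RPS29 holds 1 such run and RPS24 holds 11 over its whole coding sequence, which cover 3.5% and 22.1% of the bases. Over the 32 genes, NEBNext log2 fold change and purine share had a Pearson correlation of -0.45 in HEK293T (Spearman -0.37) and -0.43 in K562 (Spearman -0.27). RPS29 and RPS24 are among these points, and no value without them was computed. Over all genes tested the values were -0.24 (n = 4408) in HEK293T and -0.16 (n = 3714) in K562, so the relation is not particular to ribosomal proteins. RPS3A (57.6% purines), RPS18 (56.6%), RPS27A (56.5%), RPS28 (55.2%) and RPS15A (55.0%) lay above the median in purines and rose in HEK293T. RPS27 (53.3%), RPS13 (50.7%), RPSA (50.0%) and RPS29 lay below it and rose there. The correlation with the share of bases in purine runs was -0.18 in HEK293T and -0.27 in K562, and RPS27, with 23.9% of its bases in runs, rose in both lines. GC content and coding length had weaker relations, between -0.08 and -0.26.

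**Figure D3:**
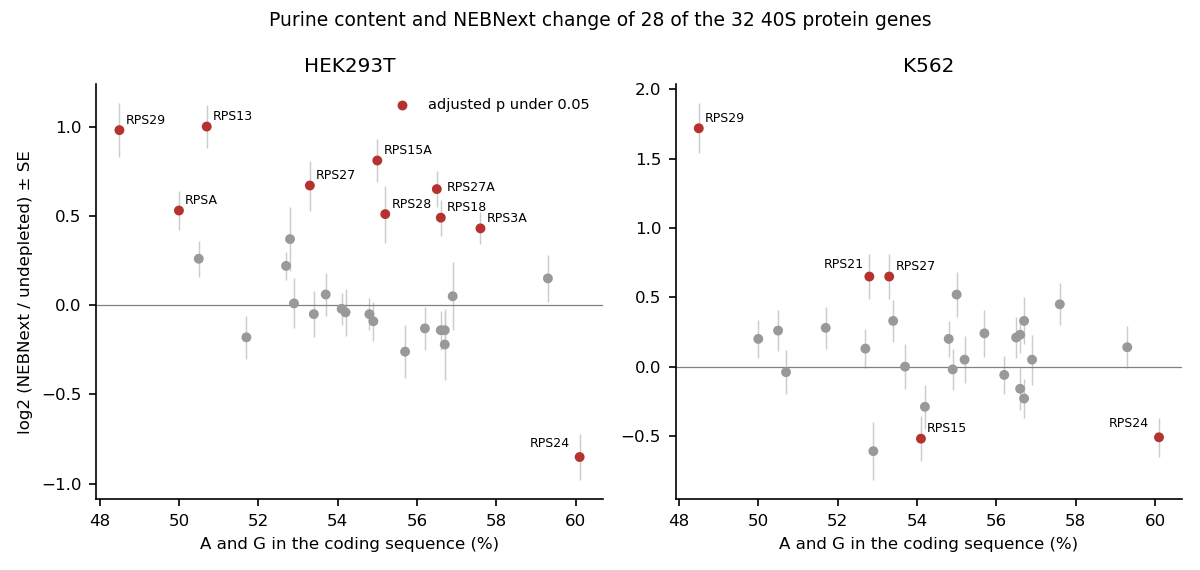
Share of A and G in the coding sequence (x axis, percent) against the fitted log2 ratio of NEBNext over undepleted libraries with its SE (y axis) for 28 of the 32 genes, in HEK293T (left) and K562 (right). RPS29 at 48.5% purines is at or near the top in both lines and RPS24 at 60.1% is at or near the bottom, with wide scatter between.

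Ribo-Zero Plus, the other nuclease kit, changed the 32 genes far less than NEBNext. With 1 library, and the spread taken from the replicated groups of the kit table, edgeR called 6 of 32 genes (18.8%), 4 higher and 2 lower, where 20.4% of 10142 genes were called (8.99% higher, 11.4% lower) and 21.6% of the 291 at least as abundant. The share of members called was thus at the level of the background. RPS29 had 713 and 683 CPM without depletion and 789 CPM with the kit, and RPS21 had 986 and 899 against 1062 CPM. Each had a log2 fold change of 0.19, with SEs of 0.06 and 0.05. RPS19 (1790 and 1793 against 1958 CPM) had a log2 fold change of 0.15 and RPS23 one of 0.13. RPS15A (1072 and 995 against 921 CPM) had a log2 fold change of -0.15 and RPS4X (2042 and 2033 against 1844 CPM) one of -0.12. The calls of RPS29 and RPS21 were lost without undepleted replicate 2 (0.17 and 0.13), and those of RPS15A and RPS4X without undepleted replicate 1 (-0.09 and -0.12). All 32 values lay between -0.15 and 0.19, and DESeq2 called 0 of the 32 genes (10 of 32 had an unadjusted p under 0.05 in edgeR).

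The Ribo-Zero Plus libraries with oligos or formaldehyde changed the proportions among the 32 genes more. Their scaling was uncertain: TMM put the median log2 fold change of all genes at -1.25 with formaldehyde (DESeq2 -0.74), -0.64 with oligos (DESeq2 -0.40) and -0.81 with both (DESeq2 -0.50), so changes are given here against the median of the 32 genes. With formaldehyde RPS27 stood 1.08 above that median on the log2 scale and RPS12 stood 1.06 below it. With both additions RPS27 stood 1.05 above and RPS12 1.21 below. As a share of the 32 genes' counts, RPS12 took 1.38% and 1.25% in the undepleted libraries, 0.583% with formaldehyde and 0.567% with both, and RPS27 took 2.0% and 1.87%, then 3.79% and 3.98%. With oligos alone RPS12 held 1.60% and RPS27 held 1.82%. RPS12 rested on 34 and 46 counts in the 2 formaldehyde libraries. FAU was the gene that fell furthest with oligos alone, from 932 and 952 to 574 CPM, 0.68 below the median of the members.

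In edgeR, 22 of 32 genes were called with formaldehyde (25.7% of all genes, 7.31% higher and 18.4% lower, 58.5% of the 306 at least as abundant), 13 with oligos (29.4% of all genes, 9.50% higher and 19.9% lower, 42.0% of the 295 at least as abundant) and 20 with both (30.1% of all genes, 9.36% higher and 20.7% lower, 61.5% of the 304 at least as abundant). The directions depended on scaling. With formaldehyde TMM gave 3 genes higher and 19 lower, scaling by total counts gave 7 and 10, and DESeq2 gave 3 and 5. With oligos the counts were 2 and 11 by TMM, 6 and 4 by total counts, and 0 and 1 by DESeq2, and with both they were 4 and 16, 7 and 10, and 4 and 6. RPS27 higher and RPS12 lower held under every alternative with formaldehyde and with both additions, and FAU lower held under every alternative with oligos.

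**Figure D4:**
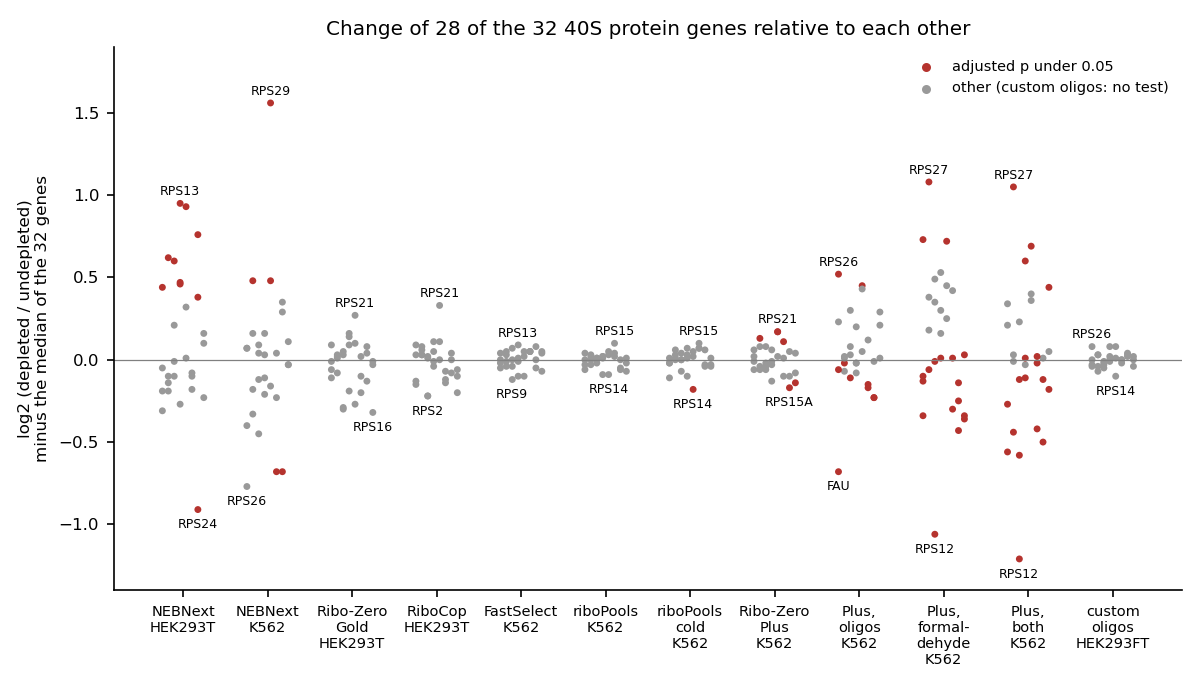
Log2 ratio of depleted over undepleted libraries for 28 of the 32 genes in 12 comparisons, with the median of the 32 genes subtracted from each (y axis) and 1 point per gene. Red points had an adjusted p under 0.05 for the fitted ratio before the median was subtracted, the highest and lowest gene drawn in each comparison are named, and the spread is widest for NEBNext and for the libraries treated with formaldehyde.

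Bead capture and FastSelect left the proportions of the small-subunit genes almost as they were. No member was called by edgeR or DESeq2 with Ribo-Zero Gold (0.0680% of all genes in edgeR), RiboCop (0%), FastSelect (0.0205%) or riboPools (0.0820%). Of the 32 genes, 6, 1, 8 and 6 had an unadjusted p under 0.05. The log2 fold changes ran from -0.26 to 0.34 with Ribo-Zero Gold and from -0.17 to 0.38 with RiboCop, in libraries of low depth. They ran from -0.14 to 0.08 with FastSelect and from -0.12 to 0.09 with riboPools. With cold elution 2 of 32 genes were called, both lower, where 0.225% of all genes (0.0820% lower) and 5.28% of the 322 at least as abundant were. RPS14 had 1437 and 1452 CPM without depletion and 1274 and 1266 CPM with cold elution. Its log2 fold change was -0.19 with SE 0.03 and an edgeR adjusted p of 2.15e-05. Without cold elution replicate 1, or without undepleted replicate 2, 1 of the 32 genes was called, and RPS14 was called under all 9 alternatives. With custom oligos in HEK293FT, where 1 library stood against 1 and no test was made, the 32 log2 ratios lay between -0.10 and 0.08.

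The spread of the log2 ratio over the 32 genes was computed for each kit, and it includes counting error, which differs between tables. Between NEBNext and undepleted libraries its SD was 0.43 in HEK293T (mean of 4 pairs of libraries) and 0.44 in K562 (mean of 2 pairs), where counting error alone gives 0.17 and 0.16. For Ribo-Zero Gold it was 0.19 and for RiboCop 0.17, where counting gives 0.14 and 0.16. Between both undepleted HEK293T libraries it was 0.21, where counting gives 0.18. FastSelect gave 0.07, riboPools 0.06, cold elution 0.07 and Ribo-Zero Plus 0.09, where counting gives 0.04 to 0.05. Between the undepleted K562 kit libraries it was 0.07, where counting gives 0.05. With formaldehyde the SD was 0.43, with oligos 0.24 and with both 0.44, where counting gives 0.10 to 0.13. The SD of the levels themselves was 0.49 and 0.52 in the undepleted HEK293T libraries and 0.63 and 0.66 with NEBNext. In the K562 size-selection table it was 0.54 in both undepleted libraries and 0.76 and 0.61 with NEBNext. In the kit table it was 0.53 and 0.54 in undepleted libraries, 0.56 with Ribo-Zero Plus, 0.57 with oligos, and 0.79 and 0.76 in the formaldehyde libraries.

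Large-subunit genes did not gain with the small-subunit genes when NEBNext was used. The ratio of counts in 47 large-subunit genes to counts in the 32 small-subunit genes was 1.56 and 1.61 in undepleted HEK293T and 1.40 and 1.41 with NEBNext. In K562 it was 1.50 and 1.54 without depletion and 1.35 and 1.45 with NEBNext. The libraries of the K562 kit table other than those with formaldehyde lay between 1.51 and 1.55, and both formaldehyde libraries at 1.46. Large-subunit genes were called as well with NEBNext, 5 higher and 7 lower of 47 in HEK293T and 7 higher and 5 lower in K562, with medians of -0.01 and -0.12. That is 25.5% of the list in each line, where 3.24% and 2.72% of all genes were called, and 17.7% and 13.1% of those at least as abundant as the lowest small-subunit gene. Whether the subunits differ in their response was not tested.

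**Figure D5:**
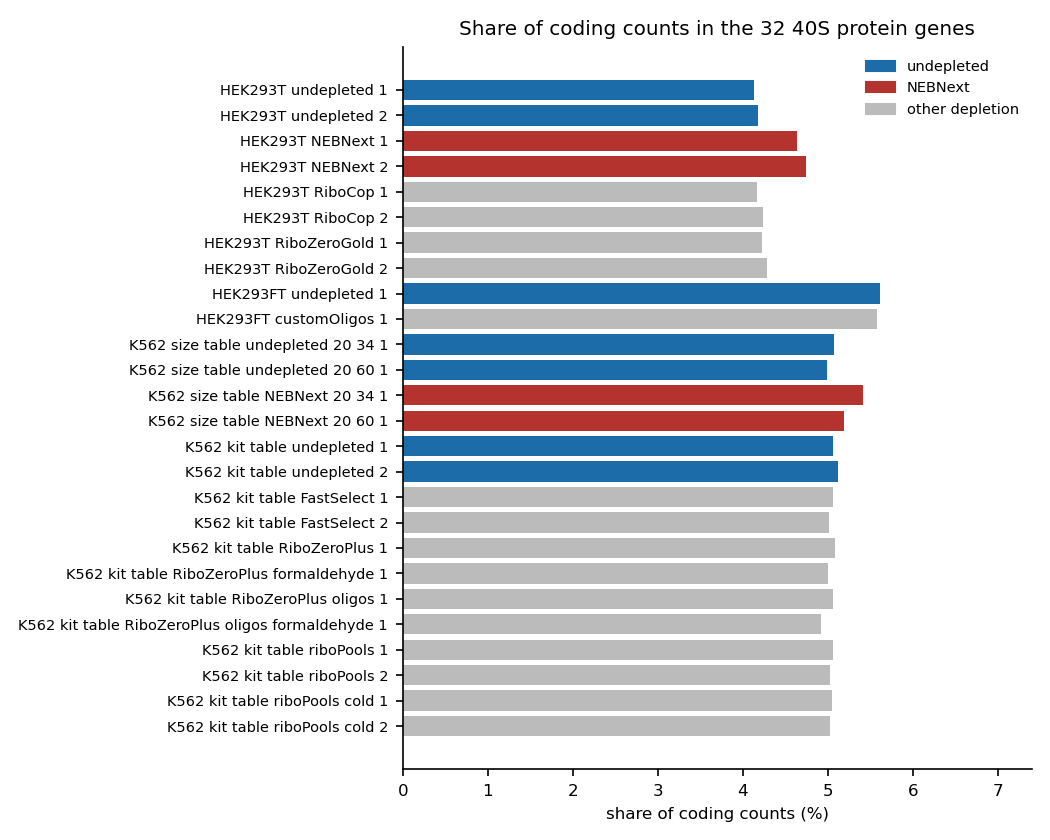
Share of coding counts (x axis, percent) in the 32 small-subunit genes, 1 bar per library, by table and depletion. The NEBNext libraries of HEK293T (4.637% and 4.748%) lie above the other HEK293T libraries (4.133% to 4.288%), and the HEK293FT and K562 libraries all lie higher.

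Factors that assemble or work with the small subunit, a list of 31 genes, were called with NEBNext about as often as all genes. Of 29 tested in HEK293T, 0 rose and 1 fell in edgeR (3.45%, where 3.24% of all genes were called), and of 28 tested in K562 0 were called by edgeR or DESeq2 (2.72% of all genes in edgeR) and 4 had an unadjusted p under 0.05 in edgeR. FBL, the methyltransferase of box C/D small nucleolar ribonucleoproteins, was the gene that fell, from 550 and 645 to 300 and 398 CPM (log2 fold change -0.73, SE 0.18, edgeR adjusted p 0.00363). DIMT1, which dimethylates small-subunit RNA, had the next smallest adjusted p, 0.153 in edgeR, with 16.7 and 84.7 CPM without and 113 and 119 CPM with NEBNext. With Ribo-Zero Plus 8 of 31 were called (25.8%), near the 20.4% of all genes.

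Processed copies of these genes are many, and footprints are short, so counts of some members are uncertain. The coding sequence of each member was cut into 28-mers, about the length of a footprint, and each was looked up in the transcripts of all other genes in GENCODE 29. In 17 of the 32 genes more than 75% of the 28-mers occurred in another gene, and in RPS3A, RPS10, RPS26, RPS27 and RPS28 all of them did. RPS21 shared least, 20.4%, then RPS19 with 30.4%. RPS21 (chr20:62387116-62388519, plus strand) and RPS28 (chr19:8321500-8323340, plus strand) are printed whole, with bases inside a 28-mer of another gene in capitals.
RPS21: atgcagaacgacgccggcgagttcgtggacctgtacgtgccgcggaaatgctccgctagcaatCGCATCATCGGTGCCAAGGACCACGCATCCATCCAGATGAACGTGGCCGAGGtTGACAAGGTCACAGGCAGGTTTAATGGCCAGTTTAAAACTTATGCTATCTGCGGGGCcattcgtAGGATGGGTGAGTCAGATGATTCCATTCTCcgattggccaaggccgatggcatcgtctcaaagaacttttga
RPS28: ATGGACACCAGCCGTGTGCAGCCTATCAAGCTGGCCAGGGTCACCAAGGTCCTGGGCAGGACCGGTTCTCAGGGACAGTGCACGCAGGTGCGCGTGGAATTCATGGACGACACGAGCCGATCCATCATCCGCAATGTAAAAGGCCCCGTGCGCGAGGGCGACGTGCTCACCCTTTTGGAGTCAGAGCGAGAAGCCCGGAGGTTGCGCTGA
How reads that match several genes were counted is not given in the sources used here. The level per kb in undepleted HEK293T had a correlation of -0.01 with the share of shared 28-mers over the 32 genes, and that in the K562 kit table -0.17. For the NEBNext log2 fold change the correlation was 0.36 in HEK293T and 0.07 in K562. Of the genes whose 28-mers are all shared, RPS3A, RPS27 and RPS28 rose with NEBNext in HEK293T, and RPS10 and RPS26 were not called. Among the other genes that rose there, RPS27A (97.1%), RPSA (93.6%), RPS15A (90.2%), RPS18 (85.2%) and RPS29 (80.6%) also shared more than 75%. RPS13, which rose, shared 57.6%, and RPS24, which fell, shared 70.5%. The part that shared copies play in these changes was not tested. RPS10 shares 91.1% of its 28-mers with RPS10-NUDT3, a read-through transcript with a row of its own, whose counts were 0.591 to 1.10 times those of RPS10 over the 26 libraries.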

How the data were processed

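Per the file headers, the authors deposited read counts over coding sequences, with 1 transcript a row, and RPM for the same rows. RPM matched the counts scaled to a library total of 1000000 (largest difference 3.6e-12), so counts alone were tested and CPM was computed from them. STAR, CASAVA 1.8 and GRCh38 are named in the submitters' processing notes. Handling of reads that match several genes is not given in the sources used here. Libraries were grouped by title.

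edgeR 4.0.16 in R 4.3.3 was used on the counts: TMM, filterByExpr with a minimum count of 10, quasi-likelihood test, Benjamini-Hochberg adjustment over all genes tested, threshold 0.05. SE stands for the log2 fold change, without its sign, divided by the root of F. The HEK293T groups entered 1 fit, as did the K562 kit groups without Ribo-Zero Plus, then with it. In the K562 size-selection table size was a term of the fit. All undepleted libraries entered 1 fit across tables. All 32 members passed the filters. The test scripts were tested on simulated data. The members, lists and comparisons were chosen with earlier results of these data known. Given per library are the 3 largest rises and falls among called members with NEBNext and Ribo-Zero Plus, calls with other kits, and the 3 highest and lowest levels. The values of 4 members, which enter the counts, medians and shares, are not reported here, and figures draw the other 28. Alternatives were DESeq2 1.42.0, total-count scaling, no filter, leaving out each library, a replicate block, other fits and other length or reference choices. Transcripts were matched to GENCODE 29 without the version, since 7 members had another version. The RiboCop pair did not differ beyond counting (chi-square p 0.103 over 4378 genes). As barcodes and totals differ, both were kept.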

Additional observations from a re-analysis of the deposited data

Results flagged for a closer look

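The effect of NEBNext on RPS13 differed between the HEK293T and K562 experiments by the test of the difference itself. Its log2 fold change in K562 minus that in HEK293T was -1.0, with an edgeR adjusted p of 0.00503. Cell line, experiment and fragment size differ together here and cannot be told apart. Footprints were higher in 2 of 2 HEK293T libraries with NEBNext, while the K562 values overlapped. The call did not hold with DESeq2, without the filter on low counts, without undepleted HEK293T replicate 1 or without NEBNext HEK293T replicate 2. RPS13 shares 57.6% of its 28-mers with other genes, and the part that such copies play was not tested.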

How the results depend on the processing

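Among the 32 genes, the number called with NEBNext in K562 was 7 and became 2 with DESeq2. With Ribo-Zero Plus alone it was 6 and became 0 both with DESeq2 and with additive terms for oligos and formaldehyde. DESeq2 gave 8 in place of 22 with formaldehyde, 1 in place of 13 with oligos and 10 in place of 20 with both, and additive terms gave 3 with oligos. The interaction count of 1 became 0 with DESeq2 and without the filter. Leaving out 1 library gave 8 to 12 members with NEBNext in HEK293T, 0 to 1 with riboPools, 1 to 2 with cold elution and 0 to 1 for the interaction. The gain in share with NEBNext in HEK293T was 0.537 percentage points, and 0.419 without the 3 members with most counts. With 15 codons taken off each end of the coding length, the SD over members became 0.54 in HEK293T (0.51 as reported per library) and 0.61 in the K562 kit table (0.54). RPS18 over the member median in K562 was 1.42 per library, 1.45 with the shorter length and 1.34 against the mean of the members. Of 477 alternative values for single members, 395 kept their call or size, 76 lost the call, 6 moved by more than 1 SE and 0 reversed. Leaving out a library of the K562 size-selection table left no residual degrees of freedom, so values within each size stand in its place.

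Deviations of same-numbered libraries correlated at 0.013 to 0.078 in HEK293T and -0.042 to 0.009 in the K562 kit table. Libraries of 1 group differed by little more than counting error. Chi-square per degree of freedom was 1.027 to 1.205 in HEK293T and 1.051 to 1.119 in the kit table. Such deviations would correlate weakly even in paired libraries, so these values cannot decide whether replicate numbers pair the samples. With a replicate block 12 members were called with NEBNext in HEK293T, 0 with Ribo-Zero Gold, RiboCop, FastSelect and riboPools, and 2 with cold elution.

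Depth limits the HEK293T and formaldehyde comparisons, where the lowest members had 34 to 158 counts per library, and the smallest change called with NEBNext in HEK293T was 0.43 on the log2 scale.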
